A study of Homo sapiens with 6 samples.

Results

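The genes described here encode the contractile apparatus of smooth muscle, together with the coactivator that switches it on. They are ACTG2, ACTA2, TAGLN, CNN1, MYL9, CALD1, TPM1, TPM2, MYLK and MYOCD. A row of the expression table was taken where the platform's probe table gave it 1 of these symbols and no other. All 10 genes had exactly 1 such row, out of 33297 rows in the table and 18417 genes with a row of their own. The set was selected on the log2 signals of shRNA 162 against control and against shRNA 159, in which ACTG2 stood out, so the values of those comparisons are given for these genes as a description, with no test.

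The cells were MDA-MB-231, a human breast cancer line that lacks the hormone receptors and HER2 and has a mesenchymal phenotype. The groups were cells with TIP-1 shRNA 162, cells with TIP-1 shRNA 159 and cells with a control shRNA, where both TIP-1 hairpins are directed against the PDZ-domain protein TIP-1 encoded by TAX1BP3. The 3 groups comprised 2 independent clones apiece, each on 1 array without technical replicates, so the clones are the replicates (n = 2 per group) and each hairpin is known only from its 2 clones. All 6 cultures were freshly trypsinised, reseeded in RPMI 1640 and kept overnight before total RNA was taken. Values are log2 signals per probe set on the Affymetrix Human Gene 1.0 ST array, a platform with probes spread along the whole transcript.

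Smooth muscle cells contract when phosphorylated myosin pulls on filaments of smooth muscle actin, which are decorated with tropomyosin, caldesmon and calponin. Most of these genes are driven by serum response factor (SRF), which binds an AT-rich element called the CArG box and works there with myocardin or with the myocardin-related transcription factors. Those factors are held in the cytoplasm by monomeric actin and are freed when actin polymerises. Carcinoma cells of mesenchymal phenotype can express part of this set without being muscle cells.

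The upstream sequence of ACTG2, the gene with the greatest difference in the set, is shown with those of ACTA2 and MYLK. ACTA2 is the closest relative of ACTG2 in smooth muscle. MYLK is the only other one of the 7 genes with a RefSeq entry that has an intact CArG box in a window examined. Each run gives the 250 bases before the annotated start, read 5′ to 3′ on the gene's own strand from RefSeq on GRCh38.p14. Capitals mark CArG boxes, or for ACTA2 the sites that differ from one at a single base.
ACTG2, chr2:73892758-73893007, plus strand: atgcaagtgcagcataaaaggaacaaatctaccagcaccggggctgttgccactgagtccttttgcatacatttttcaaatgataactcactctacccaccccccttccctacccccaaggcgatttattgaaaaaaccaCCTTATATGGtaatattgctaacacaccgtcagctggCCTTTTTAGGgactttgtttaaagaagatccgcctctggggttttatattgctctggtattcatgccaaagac
ACTA2, chr10:88952774-88953023, minus strand, the start used in smooth muscle: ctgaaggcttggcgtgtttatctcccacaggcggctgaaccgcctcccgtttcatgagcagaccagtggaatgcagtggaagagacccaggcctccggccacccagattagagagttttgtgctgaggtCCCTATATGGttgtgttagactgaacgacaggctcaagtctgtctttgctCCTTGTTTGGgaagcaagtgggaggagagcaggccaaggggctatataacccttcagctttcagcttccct
MYLK, chr3:123620549-123620798, minus strand: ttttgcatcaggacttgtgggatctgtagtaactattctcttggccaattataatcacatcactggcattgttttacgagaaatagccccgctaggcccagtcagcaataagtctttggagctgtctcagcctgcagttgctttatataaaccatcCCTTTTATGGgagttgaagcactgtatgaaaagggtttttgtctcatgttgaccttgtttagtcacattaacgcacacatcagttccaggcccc
The ACTG2 window held 2 CArG boxes, CCTTATATGG beginning 110 bases and CCTTTTTAGG beginning 73 bases before the start, with 27 bases between them. The MYLK window held 1, CCTTTTATGG, beginning 94 bases before the start. That start lies inside the MYLK locus (chr3:123610049-123884332), near its downstream end. The upstream end of the locus had no window here. The ACTA2 window held no exact match and 2 sites one base away from the CArG pattern, beginning 121 and 71 bases before the start, along with an MCAT element (CATTCC or GGAATG), the binding sequence of TEAD factors. RefSeq entries were matched for 7 of the 10 genes, in 12 windows, and the windows of CNN1, CALD1, TPM1, TPM2 and the second ACTA2 start held no CArG box. TAGLN, MYL9 and MYOCD are named only. Both strands were searched, and over 35116 windows of the same length 1.16% held at least 1 CArG box, 0.0313% held at least 2, 16.8% held a CArG box or a site one base away from it, and 11.9% held an MCAT element. Of the 4 CALD1 windows, 2 held a site one base away and 2 held an MCAT element. A match describes the letters of the window and is not evidence of binding.

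The arrays resembled each other closely. The 2 clones of a group correlated at 0.996 to 0.997 over the 21214 tested rows, the array medians lay between 7.37 and 7.44, and the quartiles lay at 6.06 to 6.19 and 8.99 to 9.08. The targeted transcript TAX1BP3, whose row is also annotated to a read-through with P2RX5, stood at 9.85 and 10.01 in shRNA 162 clones and 10.40 and 10.40 in shRNA 159 clones, against 11.65 and 11.56 in control clones. It fell by 1.67 with shRNA 162 (limma adjusted p = 4.4e-05) and by 1.20 with shRNA 159 (adjusted p = 0.00034). All 6 mesenchymal markers of the line (VIM, CD44, AXL, MSN, CAV1, EGFR) lay above the upper quartile on every array, and their summed level was 15.29 to 15.30 in shRNA 162 clones, 15.30 to 15.36 in shRNA 159 clones and 15.36 in control clones on the log2 scale. Of the 6 luminal markers, ESR1, PGR and CDH1 lay below the median on every array, ERBB2 and GATA3 lay between the median and the upper quartile, and KRT18 lay above the upper quartile. Their summed level was 12.42 to 12.44 in shRNA 162 clones, 12.54 in shRNA 159 clones and 12.51 to 12.58 in control clones. That sum was lower in both shRNA 162 clones than in the others, and its part in the results was not tested. Most of it is KRT18, at 12.25 and 12.22 with shRNA 162, 12.35 and 12.35 with shRNA 159 and 12.32 and 12.38 in control clones.

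ACTG2, the gamma actin of enteric smooth muscle (chr2:73893008-73919865), carried the main difference. Its log2 signal was 9.06 and 8.86 in shRNA 162 clones and 12.01 and 11.98 in shRNA 159 clones, against 11.93 and 11.85 in control clones. Both shRNA 162 clones lay far below the other 4, and their own gap was 0.20. The group means were 8.96 ± 0.14 with shRNA 162, 11.99 ± 0.025 with shRNA 159 and 11.89 ± 0.055 with control shRNA (SD, n = 2 each). The shRNA 162 signal differed from control by -2.93 ± 0.09 log2 units (SE), which is 13.1% of the control level, with a 95% interval of -3.13 to -2.73. By size this was the 3rd of 21214 differences in that comparison. In shRNA 159 clones the difference from control was 0.11 ± 0.09 (limma adjusted p = 0.65, 95% interval -0.10 to 0.31), although both shRNA 159 clones lay just above both control clones. shRNA 159 exceeded shRNA 162 by 3.04 ± 0.09 log2 units. The order of the levels was therefore shRNA 159, control and shRNA 162, and the test did not separate the first 2. The signal lay above the upper quartile on 5 of the 6 arrays, all but one shRNA 162 clone. In a bulk culture, fewer cells with the transcript and less transcript per cell cannot be told apart.

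**Figure D1:**
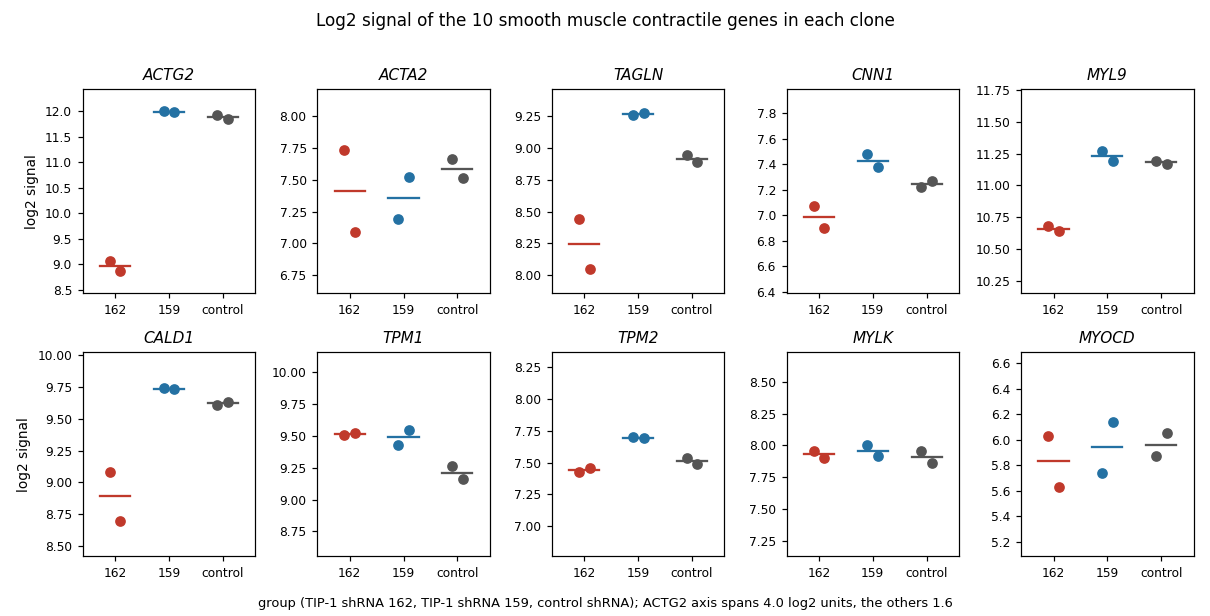
Log2 signal (y axis) of each of the 10 genes in the clones of shRNA 162, shRNA 159 and control (x axis); points are single arrays and lines are group means. The 2 shRNA 162 points of ACTG2 sit at 8.86 and 9.06 and the other 4 between 11.85 and 12.01, and the ACTG2 axis covers a wider span than the other panels, which share one span.

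ACTA2, the alpha actin of vascular smooth muscle and myofibroblasts, did not follow ACTG2. It read 7.73 and 7.09 in shRNA 162 clones and 7.19 and 7.52 in shRNA 159 clones, against 7.66 and 7.51 in control clones. The 3 groups overlapped, and the gap of 0.65 between the shRNA 162 clones was larger than any difference between group means. The difference from control was -0.18 ± 0.20 with shRNA 162 and -0.23 ± 0.20 with shRNA 159 (SE; limma adjusted p = 0.66 for shRNA 159, 95% interval -0.68 to 0.22). With shRNA 162 the 95% interval was -0.63 to 0.27. Both wide intervals leave room for a moderate decrease or a smaller increase. Actin genes resemble each other over their coding sequence, so probes of one might take up the transcript of another. How far this applies to the ACTG2 and ACTA2 rows was not tested. The rows of the striated muscle actins ACTC1 and ACTA1 differed from control by -0.01 and -0.14 with shRNA 162, and neither passed. The cytoplasmic actins ACTB and ACTG1, which build the filaments of nearly every cell, differed by -0.05 (adjusted p = 0.73) and 0.00 (adjusted p = 0.99).

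Next come the proteins that bind smooth muscle actin filaments. TAGLN encodes transgelin (SM22), an actin cross-linker and an early smooth muscle marker. Its signal was 8.44 and 8.05 in shRNA 162 clones and 9.26 and 9.27 in shRNA 159 clones, against 8.94 and 8.89 in control clones. No 2 groups overlapped, with shRNA 159 above control and shRNA 162 below it. The difference from control was -0.67 ± 0.12 with shRNA 162, which is 62.7% of the control level, and 0.35 ± 0.12 with shRNA 159 (SE; limma adjusted p = 0.23, 95% interval 0.07 to 0.62). shRNA 159 exceeded shRNA 162 by 1.02 ± 0.12. The shRNA 162 clones differed by 0.39, and without the lower one the difference from control was -0.48.

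CALD1 encodes caldesmon, which restrains actomyosin until calcium and calmodulin release it. It read 9.08 and 8.70 in shRNA 162 clones and 9.74 and 9.73 in shRNA 159 clones, against 9.61 and 9.63 in control clones. Again both shRNA 162 clones lay below the other 4, and the same clone was the lower of the pair. The difference from control was -0.73 ± 0.12 with shRNA 162, 60.4% of the control level, and 0.11 ± 0.12 with shRNA 159 (limma adjusted p = 0.72). shRNA 159 exceeded shRNA 162 by 0.84 ± 0.12. CALD1 has a long locus with several starts (chr7:134711499-134970729), and 1 row per gene does not separate its smooth muscle and non-muscle isoforms. The same holds for the tropomyosins below.

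CNN1 encodes calponin 1, a filament-associated inhibitor of myosin ATPase that marks differentiated smooth muscle. Its signal was 7.07 and 6.90 in shRNA 162 clones and 7.48 and 7.38 in shRNA 159 clones, against 7.22 and 7.27 in control clones. The order was the same as for TAGLN and no groups overlapped, but the row lay below the array median on 5 of 6 arrays and the differences were small. They were -0.26 ± 0.09 with shRNA 162 and 0.18 ± 0.09 with shRNA 159 (limma adjusted p = 0.40), while shRNA 159 exceeded shRNA 162 by 0.44 ± 0.09. Without shRNA 162 clone 2 the difference between the hairpins was 0.35, and without shRNA 159 clone 1 it was 0.39.

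MYL9 encodes the regulatory light chain whose phosphorylation starts contraction. It read 10.68 and 10.64 in shRNA 162 clones and 11.27 and 11.19 in shRNA 159 clones, against 11.19 and 11.17 in control clones. The shRNA 162 clones lay below the other 4 and the shRNA 159 and control clones overlapped. The difference from control was -0.52 ± 0.08 with shRNA 162, 69.8% of the control level, and 0.05 ± 0.08 with shRNA 159 (limma adjusted p = 0.83). shRNA 159 exceeded shRNA 162 by 0.57 ± 0.08. MYLK encodes the kinase that phosphorylates this light chain. MYLK read 7.96 and 7.90 in shRNA 162 clones and 8.0 and 7.92 in shRNA 159 clones, against 7.96 and 7.86 in control clones. All 3 groups overlapped, and the differences from control were 0.02 ± 0.08 with shRNA 162 (95% interval -0.16 to 0.20) and 0.05 ± 0.08 with shRNA 159 (limma adjusted p = 0.83, 95% interval -0.13 to 0.23).

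The tropomyosins, which lie along the actin filament and gate its access to myosin, differed from each other in their order of groups. TPM1 read 9.51 and 9.52 in shRNA 162 clones and 9.43 and 9.55 in shRNA 159 clones, against 9.26 and 9.16 in control clones. Here both hairpins lay above control, by 0.31 ± 0.08 with shRNA 162 and 0.28 ± 0.08 with shRNA 159 (limma adjusted p = 0.15, 95% interval 0.10 to 0.47), and they differed from each other by -0.02 ± 0.08. The TPM1 difference of shRNA 159 from control passed when only the brighter rows were tested (adjusted p = 0.035). TPM2 read 7.43 and 7.46 in shRNA 162 clones and 7.70 and 7.69 in shRNA 159 clones, against 7.54 and 7.49 in control clones. Its groups did not overlap and stood in the same order as those of ACTG2, yet the differences from control were only -0.07 ± 0.07 with shRNA 162 and 0.18 ± 0.07 with shRNA 159 (limma adjusted p = 0.31).

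MYOCD encodes myocardin, the SRF coactivator that is largely restricted to smooth and cardiac muscle. It read 6.03 and 5.63 in shRNA 162 clones and 5.74 and 6.14 in shRNA 159 clones, against 5.87 and 6.05 in control clones. The groups overlapped, and the signal lay below the array median on all 6 arrays and below the lower quartile on 5. The differences from control were -0.13 ± 0.16 with shRNA 162 and -0.02 ± 0.16 with shRNA 159 (limma adjusted p = 0.97). At so low a signal the row gives little room to detect a decrease.

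Across the set, 4 of the 10 genes passed the threshold (Benjamini-Hochberg adjusted p under 0.05 over all 21214 rows) for shRNA 162 minus control, where 9.52% of all tested rows passed. The 4 were ACTG2, CALD1, TAGLN and MYL9, all lower, beside 3.64% of rows lower and 5.88% higher (1074 rows lower and 1078 higher after quantile normalization, against 772 and 1247 without it). Since these values helped to choose the genes, nothing is read from that count. The count itself was 1 without control clone 1 and 2 without control clone 2 or shRNA 162 clone 2. For shRNA 159 minus control, 0 of 10 passed in limma beside 2.53% of all rows (1.69% higher, 0.839% lower), and 3 of the 10 (TPM1, TAGLN, TPM2) had an unadjusted p under 0.05. For shRNA 159 minus shRNA 162, 5 passed, all higher (ACTG2, TAGLN, CALD1, MYL9 and CNN1), beside 8.65% of all rows (4.02% higher, 4.64% lower). That contrast also helped to choose the genes, so nothing is read from this count either. The median difference of the 10 genes was -0.22 with shRNA 162 and 0.11 with shRNA 159, against 0.02 and -0.01 over all tested rows. Clones of shRNA 162 and control did not overlap for 7 of the 10 genes, where this held for 56.6% of all rows, and both shRNA 162 clones lay below the other 4 for 6, where this held for 12.1%. Clones did not overlap for 6 genes between shRNA 159 and control, beside 42.4% of rows, and for 6 between shRNA 159 and shRNA 162, beside 51.9%. The overlaps and the median that involve shRNA 162 draw on the values that helped to choose the genes, so nothing is read from them. Both comparisons with control use the same 2 control clones. In 8 of the 10 genes shRNA 162 clone 2 was lower than clone 1, by 0.04 in MYL9 up to 0.65 in ACTA2. The share of all rows with that order was not computed, so nothing is read from this count.

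**Figure D2:**
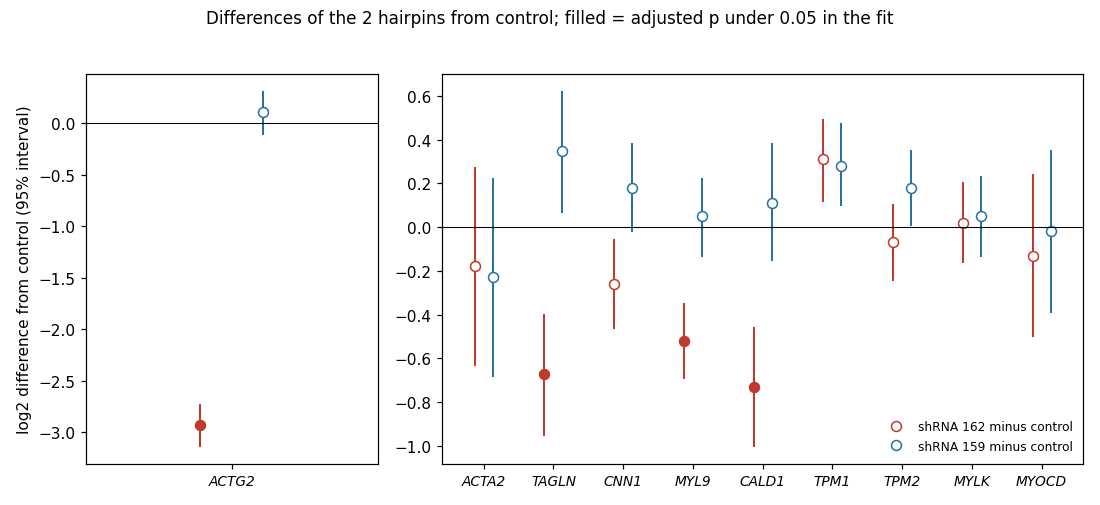
Log2 difference from control (y axis) of the 10 genes (x axis) for shRNA 162 and shRNA 159, with 95% intervals from the limma model. Filled points had an adjusted p under 0.05 in that model. The shRNA 162 values helped to choose the genes, so nothing is read from the filled points. ACTG2, on its own axis, stands at -2.93 with shRNA 162 and 0.11 with shRNA 159, while the other 9 genes lie between -0.73 and 0.35.

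The pattern of ACTG2 over the 6 arrays was compared with every other row of 1 protein-coding gene that varied by at least 1 log2 unit, 240 in all. Rows with several symbols or a non-coding gene were left out of this ranking. Genes of the set were also compared with it whatever their range. Within the set, MYL9 (Pearson r = 1.00), CALD1 (0.97), TAGLN (0.93) and CNN1 (0.89) varied most like it, TPM2 reached 0.72, and MYOCD (0.32), MYLK (0.15), ACTA2 (0.14) and TPM1 (-0.51) did not track it. These coefficients describe 6 arrays from 3 groups, are set mainly by the contrast of shRNA 162 with the rest, and carry no test. Among the 240 rows, the 8 most like ACTG2 were CD40, ETV5, CCDC50, ADGRG1, CLDN11, VPS35L, FOXRED2 and SERINC2, with r from 0.992 to 0.999. CD40, a receptor of the tumour necrosis factor family, read 7.60 and 7.54 in shRNA 162 clones and 8.73 and 8.70 in shRNA 159 clones, against 8.64 and 8.64 in control clones. For shRNA 162 minus control, SERINC2 differed by -2.21 and the other 7 by -1.36 to -1.01. ETV5, CCDC50 and CLDN11 lie on chromosome 3, and ADGRG1 and VPS35L on chromosome 16. None of the 8 is a contractile gene, but the range limit has a part in this. It kept MYL9 (range 0.63 log2 units, r = 1.00) out of the ranking. CALD1 (range 1.03, r = 0.97) and TAGLN (range 1.22, r = 0.93) met the limit and ranked below the 8. The 4 most opposite were HMGN5, NDUFB9, MAGEB2 and NSD3, with r from -0.998 to -0.996. MAGEB2, a cancer-testis antigen, read 10.64 and 10.57 in shRNA 162 clones and 5.38 and 5.72 in shRNA 159 clones, against 5.39 and 5.34 in control clones.

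**Figure D3:**
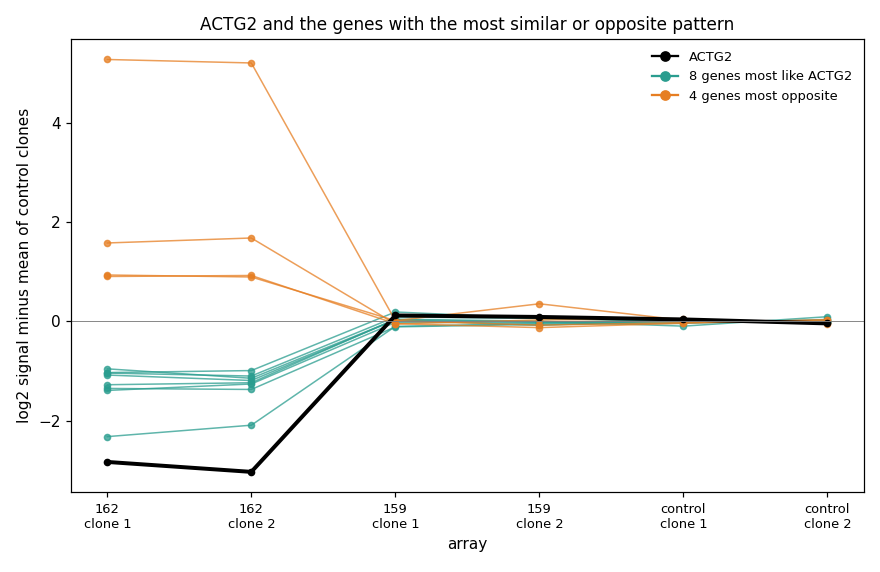
Log2 signal minus the mean of the control clones (y axis) on each array (x axis) for ACTG2, the 8 genes most like it and the 4 most opposite to it. Both were ranked among rows that varied by at least 1 log2 unit. All 13 lines separate the 2 shRNA 162 clones from the other 4, with ACTG2 the lowest and MAGEB2 the highest there.

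The genes on either side of ACTG2 on chromosome 2 did not share its difference. Of the 10 nearest measured protein-coding genes, 5 on each side, the differences of shRNA 162 from control ran from -0.19 to 0.34. MTHFD2, a mitochondrial folate enzyme, was the only one to pass, and it rose by 0.34 (limma adjusted p = 0.031). Over all tested rows 9.52% passed in that comparison, 5.88% of them higher and 3.64% lower as shares of all rows. The nearest on each side were STAMBP at -0.19 (adjusted p = 0.15) and DGUOK at -0.10 (adjusted p = 0.55). With shRNA 159 the differences of the 10 genes ran from -0.28 to 0.28 and 0 passed in limma, beside 2.53% of all rows. C2orf78, MOB1A and TET3 had an unadjusted p under 0.05 there.

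**Figure D4:**
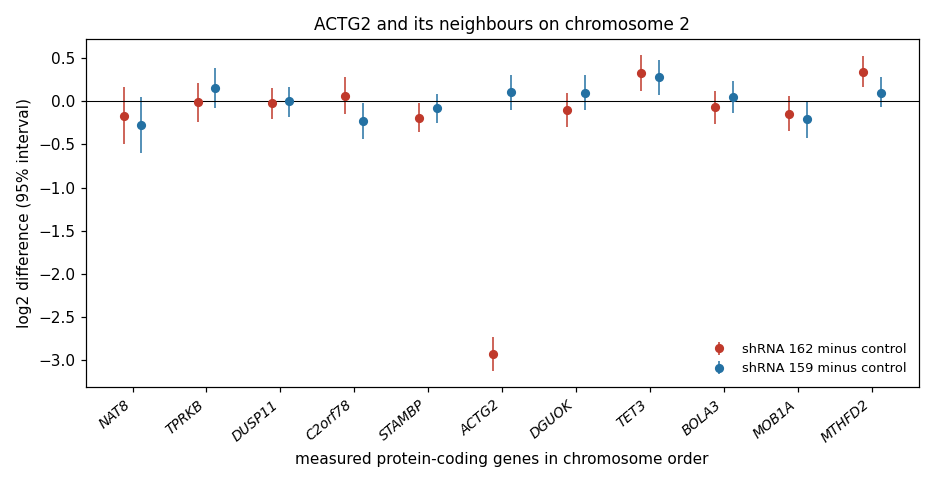
Log2 difference from control (y axis, 95% intervals) of ACTG2 and the 10 nearest measured protein-coding genes in chromosome order (x axis) for shRNA 162 and shRNA 159. ACTG2 with shRNA 162 stands at -2.93, whereas all neighbours lie between -0.28 and 0.34 with either hairpin.

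Of 23 further genes of the smooth muscle contractile programme, 20 were measured, and with shRNA 162 3 fell and 1 rose, beside 9.52% of all rows. The list's median difference was -0.09, against 0.02 over all rows. TGFB1I1 (Hic-5, a focal adhesion adaptor that responds to TGF-beta) read 9.11 and 9.13 in shRNA 162 clones and 9.58 and 9.59 in shRNA 159 clones, against 9.71 and 9.69 in control clones. It fell by 0.58 ± 0.07 with shRNA 162 (limma adjusted p = 0.0028), kept that call when any single array was left out, and was 0.47 higher with shRNA 159 than with shRNA 162 (adjusted p = 0.0072). CSRP1, a LIM protein that bridges SRF and GATA factors, fell by 0.42 with shRNA 162 (adjusted p = 0.016), and MYL6, the essential light chain, fell by 0.36 (adjusted p = 0.047). The gene that rose was PLN (0.36, adjusted p = 0.042), a regulator of the calcium pump whose row lay below the lower quartile on all 6 arrays. With shRNA 159, only PPP1CB, the catalytic subunit of myosin phosphatase, passed, and it rose by 0.44 (adjusted p = 0.029). Between the hairpins 4 were higher with shRNA 159 and 1 was lower, including NEXN, an actin-binding protein of muscle, at 0.69 (adjusted p = 0.018). Of the markers of mature smooth muscle, MYH11, LMOD1 and SYNPO2 lay below the median on all 6 arrays, SMTN lay above the upper quartile, DES lay between the quartiles, and 0 of the 5 passed in limma in either comparison with control (0 at an unadjusted p under 0.05 with shRNA 162 and 2 with shRNA 159). Their summed log2 level was 10.66 to 10.67 with shRNA 162, 10.68 to 10.72 with shRNA 159 and 10.76 to 10.80 in control clones. That sum was lower in all shRNA clones than in both control clones, and its part in the other results was not tested. Most of it is SMTN, at 10.11 and 10.12 with shRNA 162, 10.25 and 10.16 with shRNA 159 and 10.24 and 10.30 in control clones. The count of 4 with shRNA 162 became 1 without either control clone or either shRNA 162 clone. The call of PPP1CB with shRNA 159 was lost without any single control or shRNA 159 clone, and the 5 calls between the hairpins became 1 without either shRNA 162 clone and 2 without shRNA 159 clone 1.

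Among 17 measured relatives of the contractile proteins, 2 fell with shRNA 162 and 0 rose, with a median of -0.05, where 3.64% of all rows fell and 5.88% rose. CNN3, the calponin of non-muscle cells, fell by 0.35 (limma adjusted p = 0.024) and MYL12B, a non-muscle regulatory light chain, fell by 0.34 (adjusted p = 0.041). TPM4 at -0.32 (adjusted p = 0.086) and the non-muscle myosin heavy chain MYH9 at 0.26 (adjusted p = 0.067) did not pass. With shRNA 159, 0 of the 17 passed in limma, 0 at an unadjusted p under 0.05, and the differences ran from -0.19 to 0.10. Leaving out any of the control or shRNA 162 clones left 0 of the 2 calls.

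Of 23 genes that control SRF, 21 were measured, and the factor itself did not pass. SRF differed from control by -0.06 with shRNA 162 (limma adjusted p = 0.64) and by 0.02 with shRNA 159 (adjusted p = 0.94), and the coactivator MRTFB by 0.01 and 0.03. With shRNA 162, 2 genes fell and 1 rose, where 3.64% of all rows fell and 5.88% rose. CFL2, a cofilin that severs actin filaments, fell by 0.56 (adjusted p = 0.0067) and TEAD1, the factor that binds MCAT elements, fell by 0.40 (adjusted p = 0.015). LIMK1, the kinase that inactivates cofilin, rose with both hairpins, by 0.32 with shRNA 162 (adjusted p = 0.040) and by 0.57 with shRNA 159 (adjusted p = 0.0082). ROCK2, a kinase that activates it, read 9.63 and 9.59 in shRNA 162 clones and 10.25 and 10.33 in shRNA 159 clones, against 9.80 and 9.87 in control clones. It rose by 0.45 with shRNA 159 (adjusted p = 0.021), stood at -0.22 with shRNA 162 (adjusted p = 0.11), and was 0.67 higher with shRNA 159 than with shRNA 162 (adjusted p = 0.0019), a call kept without any single array. KLF4, a repressor of the contractile programme, was 0.42 lower with shRNA 159 than with shRNA 162 (adjusted p = 0.019). Without single control or shRNA 162 clones, the 3 calls with shRNA 162 became 0 or 1. Without either control clone, the 2 calls with shRNA 159 became 0, and without either shRNA 159 clone they became 1. The 4 calls between the hairpins became 2 without shRNA 162 clone 1 and 1 without shRNA 162 clone 2.

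Other targets of SRF and its coactivators moved both ways. Of 19 measured, 5 fell and 2 rose with shRNA 162, with a median of -0.10, where 3.64% of all rows fell and 5.88% rose and the median was 0.02. CCN2, a matricellular protein that is also a target of YAP and TGF-beta, read 11.61 and 11.59 in shRNA 162 clones and 12.03 and 12.06 in shRNA 159 clones, against 12.08 and 12.18 in control clones. It fell by 0.53 ± 0.08 with shRNA 162 (limma adjusted p = 0.0052), also without any single array. The other decreases were the actin cross-linker ACTN1 (-0.48, adjusted p = 0.0061), the LIM proteins PDLIM7 (-0.51, adjusted p = 0.0093), PDLIM5 (-0.36, adjusted p = 0.039) and FHL2 (-0.29, adjusted p = 0.045). The 2 that rose were EGR1 (0.46, adjusted p = 0.014) and JUNB (0.41, adjusted p = 0.016), both immediate early genes. FOS at -0.08 (adjusted p = 0.72) and IER2 at 0.09 (adjusted p = 0.58), of the same kind, did not pass. With shRNA 159 only THBS1, an extracellular matrix glycoprotein, passed, and it fell by 0.40 (adjusted p = 0.040). Between the hairpins, 3 were higher and 3 lower with shRNA 159, among them ACTN1 at 0.46 (adjusted p = 0.0073) and THBS1 at -0.49 (adjusted p = 0.0089). Leaving out either control clone or either shRNA 162 clone left 1 to 4 of the 7 calls with shRNA 162. The 6 calls between the hairpins became 0 without either shRNA 162 clone and 3 without shRNA 159 clone 1. The call of THBS1 with shRNA 159 was lost without any single array.

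TGF-beta, a main inducer of smooth muscle genes outside muscle, was represented by 11 measured genes. With shRNA 162, 2 rose and 0 fell, with a median of 0.09, where 5.88% of all rows rose and 3.64% fell. SKIL, a repressor of SMAD proteins and itself a TGF-beta target, rose by 0.53 (limma adjusted p = 0.0074), and SMAD3, which carries the signal to the nucleus, rose by 0.38 (adjusted p = 0.029). SMAD7 at 0.28 (adjusted p = 0.088) and the coreceptor TGFBR3 at 0.28 (adjusted p = 0.11) did not pass. With shRNA 159, 0 of 11 passed in limma (1 at an unadjusted p under 0.05), and SKIL was 0.51 lower with shRNA 159 than with shRNA 162 (adjusted p = 0.0091). Without single control or shRNA 162 clones, the 2 calls with shRNA 162 became 0 or 1, and the SKIL call between the hairpins was lost without shRNA 162 clone 2.

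**Figure D5:**
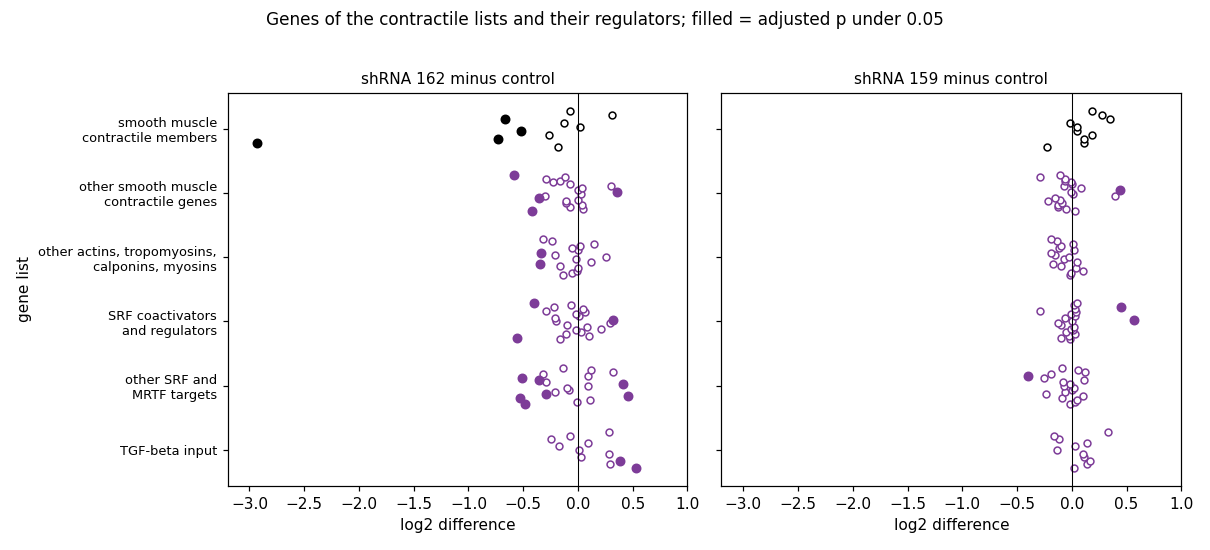
Log2 difference from control (x axis) of each measured gene, for shRNA 162 (left) and shRNA 159 (right). Rows are the contractile set and the lists of relatives and regulators. Filled points had a limma adjusted p under 0.05. Nothing is read from the filled points of the contractile set, whose shRNA 162 values helped to choose it. ACTG2 at -2.93 with shRNA 162 stands apart from all other points, which lie between -0.73 and 0.57.

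Markers of other cells that can carry contractile genes were read on the same arrays. Of the 7 fibroblast and pericyte markers, DCN and LUM lay below the lower quartile on all 6 arrays, PDGFRA and RGS5 lay below the median on all 6 and PDGFRB on 4, COL1A1 and COL3A1 lay between the median and the upper quartile on all 6, and the summed level of the 7 genes was 9.91 to 10.00 in shRNA 162 clones, 9.88 to 9.95 in shRNA 159 clones and 9.89 to 9.93 in control clones. PDGFRB was 0.41 higher with shRNA 159 than with shRNA 162 (limma adjusted p = 0.018), and 0 of the 7 passed in limma in either comparison with control (1 at an unadjusted p under 0.05 with shRNA 162 and 2 with shRNA 159). Of the myoepithelial markers, 3 of 5 were measured, and the summed level was 9.27 to 9.36 in shRNA 162 clones, 9.34 to 9.57 in shRNA 159 clones and 9.53 to 9.56 in control clones. OXTR, the oxytocin receptor of myoepithelium and uterine muscle, fell by 0.38 with shRNA 162 (adjusted p = 0.030). The 3 endothelial markers lay below the median on every array, at a summed 8.24 to 8.37 in shRNA 162 clones, 8.16 to 8.25 in shRNA 159 clones and 8.23 to 8.36 in control clones. The part of the myoepithelial sum, which is lower in both shRNA 162 clones than in both control clones, in the ACTG2 difference was not tested.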

How the data were processed

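Total RNA of 6 cultures was measured on the Human Gene 1.0 ST platform of Affymetrix. The deposited table holds 1 log2 value per probe set and array, made by the authors with the Exon Array Computational Tool, per the series' design text. How that tool was set is not stated there, and base 2 of the logarithm is read from the span of the values, 2.29 to 14.65. Arrays give no count depth, and their number limits the precision. Gene symbols are those of the platform annotation, and 1754 rows with several symbols and 19460 with 1 symbol were tested (21214 in all), while 12083 without a symbol were left out.

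The values were used without further scaling. A model with 3 groups was fitted to each row in R 4.3.3 by lmFit and eBayes of limma 3.58.1, on 3 residual and 5.31 prior degrees of freedom, and tests were two-sided. The threshold was an adjusted p (Benjamini-Hochberg over all 21214 rows) under 0.05. Errors of differences are standard errors of this model, and intervals are 95%. The fit was tested on simulated data. A gene with several rows entered a list by its brightest row. Summed levels of markers are log2 of the summed linear signals. Alternatives were a fit without single arrays, a fit on the 4 arrays compared alone, the replicate number as a block, a trended variance prior, quantile normalization first, testing the brighter rows alone, and testing every row. For genes and counts of the other lists they were added after seeing the data.

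The genes of the set and the lists were chosen with earlier results of these data known. The text names all genes of the set, up to 4 genes per list by smallest p, ACTB and ACTG1, the 8 rows most like and 4 most opposite to ACTG2, and its 5 measured neighbours on each side. MYL6, PLN, PDLIM5, FHL2, EGR1, JUNB, FOS, IER2, KLF4, SRF, MRTFB, ACTC1, ACTA1 and the markers named singly were chosen after their values were seen. List genes without a row of their own were not analysed here. Upstream sequences, gene positions and neighbours came from RefSeq on GRCh38.p14. Python 3.11.15 and matplotlib 3.10.9 made the figures.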

Additional observations from a re-analysis of the deposited data

Results flagged for a closer look

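For 5 genes of the set the 2 hairpins differed when set against each other, shRNA 159 minus shRNA 162, which is the difference between their effects relative to the shared control clones. The log2 differences were 3.04 for ACTG2, 1.02 for TAGLN, 0.84 for CALD1, 0.57 for MYL9 and 0.44 for CNN1, all higher in shRNA 159 clones. The same contrast helped to choose the genes, so these are given as values. TAX1BP3, the targeted transcript, was lower than control with both hairpins and stood 0.47 higher with shRNA 159 than with shRNA 162 (limma adjusted p = 0.013). Whether the level of TAX1BP3 has a part in these differences was not tested, and a property of the hairpin and a property of its 2 clones cannot be told apart.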

How the results depend on the processing

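Over 12 alternatives the ACTG2 difference ran from -3.03 to -2.83 for shRNA 162 minus control and from 2.94 to 3.14 for shRNA 159 minus shRNA 162, given as a description because the gene was chosen on them. Counts of calls moved. For shRNA 162 minus control, 3090 rows passed among brighter rows, 691 among all rows and 3482 with a variance trend, against 2019; for shRNA 159 minus control 946, 111 and 1137, against 537; and for shRNA 159 minus shRNA 162 593 with all rows and 3022 with a trend, against 1836. Leaving out each array gave 526 to 2416 rows for shRNA 162 minus control, 142 to 512 for shRNA 159 minus control and 597 to 1352 between the hairpins. Of the contractile set, 1 to 5, 0 and 4 to 5 genes passed in those fits; with all rows 2 passed for shRNA 162 minus control, and 1 (TPM1) passed for shRNA 159 minus control among brighter rows and with a trend. Of 348 values of the 10 genes under alternatives, 13 changed sign. These were MYOCD for shRNA 159 minus control, at 0.01 after quantile normalization and -0.22 to 0.18 over the fits without single arrays, and the following only where single arrays were left out. For shRNA 162 minus control ACTA2 ran from -0.50 to 0.15, MYOCD from -0.33 to 0.07 and MYLK from -0.03 to 0.06; between the hairpins ACTA2 ran from -0.38 to 0.27, MYOCD from -0.09 to 0.31, TPM1 from -0.08 to 0.03 and MYLK from 0.00 to 0.07. Where alternatives leave out arrays or add rows to the adjustment, fewer arrays or more tests are part of their construction; otherwise the cause was not tested. Of 27 calls of the genes taken from the other lists by smallest p, 3 held without any single array and none changed sign in the alternatives run; genes named after their values were seen were not refitted singly. The replicate numbers did not pair the samples (correlations of deviations -0.03, -0.05 and 0.26), and the replicate block gave 2128, 584 and 1983 rows and 4, 0 and 5 genes of the set, and changed no call in the set. Signal over background was not tested, and 2 clones per group limit the precision.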

Other observations

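Of the 11 genes with at least 2 CArG boxes in the upstream window, 6 had a row of their own. Beside ACTG2 they were EGR1 (0.46 for shRNA 162 minus control, limma adjusted p = 0.014), ING4, a chromatin reader (0.36, adjusted p = 0.019), ZNF548 (0.27, adjusted p = 0.14), SRF (-0.06, adjusted p = 0.64) and CUL4B, a ubiquitin ligase scaffold (-0.09, adjusted p = 0.52). Of these 5, EGR1 and ING4 rose and 0 fell. Outside the contractile set, 227 measured genes had at least 1 CArG box there, of which 6.17% rose and 6.17% fell with shRNA 162, with a median difference of -0.01. Among 14003 other genes with an entry, 5.66% rose and 4.14% fell, with a median of 0.02. With shRNA 159, 4 of the 227 (1.76%) rose and 3 (1.32%) fell, against 1.83% and 0.836% of the other genes.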
